A study of Mus musculus with 42 samples.

Results

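The HoxC cluster carries 9 Hox genes on mouse chromosome 15, in the order Hoxc13, Hoxc12, Hoxc11, Hoxc10, Hoxc9, Hoxc8, Hoxc6, Hoxc5 and Hoxc4 along the plus strand. Binding events were taken from chr15:102916103-103041852 in mm10, a 126 kb window that ended 5 kb beyond the outer genes. It held 415 of the 1087512 events in the 21 deposited event lists. Events of any list that followed each other within 100 bp were joined, which gave 90 sites, and every site was assigned to the HoxC gene with the nearest coding sequence.

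The lists come from chromatin immunoprecipitation sequencing (ChIP-seq) of embryoid bodies (EBs, aggregates of differentiating cells) of Ainv15 mouse embryonic stem cells. Each line carried 1 copy of a Hox transgene at the Hprt locus that doxycycline (Dox) switched on, and all lists are from Dox-treated cells, so none shows binding without an induced Hox factor. At day 3, after 24 h of Dox under retinoic acid (RA) and a smoothened agonist (SAG), the induced factors were HOXC6 and HOXC8 (central), HOXC9, HOXA9, HOXD9, HOXC10 and HOXC13 (posterior), and 4 chimeras. In HOXC13:C10.1 and HOXC13:C10.2 the amino-terminal part came from HOXC13 and the homeodomain with the carboxyl end from HOXC10, and HOXC10:C13.1 with its partner HOXC10:C13.2 had the converse make-up. The second of each pair also took a stretch before the homeodomain from the same protein as the homeodomain. Day 4 lists, after 48 h of Dox, exist for HOXC6, HOXC9 and HOXC10, and EB lists without RA or SAG, after 12 h of Dox, for HOXC6 and HOXC9. An antibody to MEIS was used at day 3 in iHoxc6.V5, iHoxc9.V5 and iHoxc10.V5 cells, and 1 to PBX at day 4 in iFlag.Hoxc9 and iFlag.Hoxc10 cells. Most HOX libraries were precipitated through an amino-terminal Flag tag, the second HOXA9, HOXD9 and HOXC13 libraries through a carboxyl-terminal HA tag, and the first HOXC10 library at day 3 with another antibody in iHoxc10.V5 cells. The HOXC13 transgene was a human cDNA. No expression values were used here, so the identity of the cells was not checked by marker genes.

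Hox genes encode homeodomain transcription factors that give cells their position along the head-to-tail axis. Their order in a cluster follows the order of their expression along that axis, with Hoxc4 at the anterior end and Hoxc13 at the posterior end. Hox proteins bind regulatory DNA inside the Hox clusters themselves, and posterior Hox proteins are known to repress more anterior Hox genes in motor neurons. MEIS and PBX are homeodomain proteins of the TALE class that bind DNA beside Hox proteins.

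The 11 sites on which the description turns are shown in order from Hoxc4 to Hoxc13. They are the sites held by most lists at each gene, the sites held by all 7 full-length day 3 lists, and the strongest cluster event of each full-length HOXC list at day 3. Sequences are the plus strand of GRCm38, the same assembly as mm10, from RefSeq. Capitals mark TAAT, TTTAT or TTTAC on either strand, short words that homeodomains are known to bind and that were counted here. Stretches inside untranslated exons were left out, and so the upstream Hoxc4 site, which lies in a predicted first exon, is shown by 30 bases.

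Hoxc4 intronic site (chr15:103035316-103035423): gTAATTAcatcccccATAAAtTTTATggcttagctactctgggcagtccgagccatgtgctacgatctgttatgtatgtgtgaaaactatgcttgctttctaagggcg
upstream Hoxc4 site (chr15:103032896-103032925): gactgaTTTATgacgtTTTACagccctata
downstream Hoxc4 site (chr15:103039979-103040099): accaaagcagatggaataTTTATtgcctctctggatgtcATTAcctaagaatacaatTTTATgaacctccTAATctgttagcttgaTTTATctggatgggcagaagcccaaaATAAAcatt
Hoxc5 intronic site (chr15:103014606-103014726): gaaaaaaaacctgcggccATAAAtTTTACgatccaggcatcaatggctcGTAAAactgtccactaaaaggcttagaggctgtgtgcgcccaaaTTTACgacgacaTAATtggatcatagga
Hoxc6 intronic site (chr15:103010007-103010116): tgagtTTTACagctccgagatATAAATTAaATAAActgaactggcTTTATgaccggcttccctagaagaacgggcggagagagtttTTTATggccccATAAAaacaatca
site before Hoxc6 (chr15:102998076-102998196): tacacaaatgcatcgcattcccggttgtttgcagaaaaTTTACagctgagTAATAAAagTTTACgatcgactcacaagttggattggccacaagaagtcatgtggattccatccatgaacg
site before Hoxc9 (chr15:102980424-102980544): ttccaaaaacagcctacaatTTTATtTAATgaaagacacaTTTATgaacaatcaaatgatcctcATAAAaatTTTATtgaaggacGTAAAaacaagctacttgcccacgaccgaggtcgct
site before Hoxc10 (chr15:102964798-102964918): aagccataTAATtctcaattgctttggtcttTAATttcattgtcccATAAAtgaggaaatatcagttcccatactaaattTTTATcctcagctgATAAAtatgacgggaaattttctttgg
Hoxc11 intronic site (chr15:102955280-102955400): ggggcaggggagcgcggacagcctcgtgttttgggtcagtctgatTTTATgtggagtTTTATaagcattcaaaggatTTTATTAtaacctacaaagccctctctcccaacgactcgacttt
site before Hoxc12 (chr15:102936297-102936417): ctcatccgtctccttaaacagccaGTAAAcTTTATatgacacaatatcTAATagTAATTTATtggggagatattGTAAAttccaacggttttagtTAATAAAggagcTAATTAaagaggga
site after Hoxc13 (chr15:102929566-102929686): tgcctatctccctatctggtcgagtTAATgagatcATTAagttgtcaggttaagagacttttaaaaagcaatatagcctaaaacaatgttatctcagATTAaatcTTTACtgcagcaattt

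The lists rested on 40 libraries of 5.04 M to 32.9 M aligned reads, and 0.008 to 0.527 of the reads of a library were assigned to signal by the event caller. The lists held from 848 to 128388 events. Each list pooled its libraries (14 lists pooled 2 libraries, and 5 rested on 1), and no event has a value per replicate. No difference between lists could therefore be tested, and the 95% intervals given for reads, ratios and shares cover counting error only. The reads of an event are the deposited estimated count of ChIP reads, which were not scaled to depth. Where a list had several events at a site, its strongest event stands for it. Comparisons between lists rest on presence, on the rank of an event by q-value within its own list, and on ratios of 2 sites within 1 list.

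At day 3 the window held 9 events of HOXC6, 15 of HOXC8, 24 of HOXC9, 29 of HOXA9, 23 of HOXD9, 16 of HOXC10 and 36 of HOXC13. Their density was 6.54 times (HOXC13, 95% interval 4.58 to 9.06) to 12.5 times (HOXC10, 7.17 to 20.4) the mean of the assembled genome. These ratios moved with list length, and among the first 10000 events of each list they were 10.5 for HOXC6, 14.7 for HOXC8, 16.8 for HOXC9, 18.95 for HOXA9, 18.96 for HOXD9, 21.1 for HOXC10 and 16.9 for HOXC13, so that HOXC6 and not HOXC13 was the lowest. HoxC was the least dense of the 4 Hox clusters in the HOXC6, HOXC8, HOXC9, HOXA9, HOXD9 and HOXC10 lists. HOXC9, for example, had 1.91 events per 10 kb in HoxC, 4.51 in HoxA, 2.56 in HoxB and 2.25 in HoxD. In the HOXC13 list HoxC, with 2.86 events per 10 kb, lay above HoxB (2.17) and close to HoxD (2.81). The 2 flanks of the same length were unlike each other. The flank next to Hoxc13 held 0 to 2 events of every full-length list but HOXC13, which had 8, whereas the flank next to Hoxc4 held from 5 (HOXC6) to 30 (HOXD9).

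**Figure D1:**
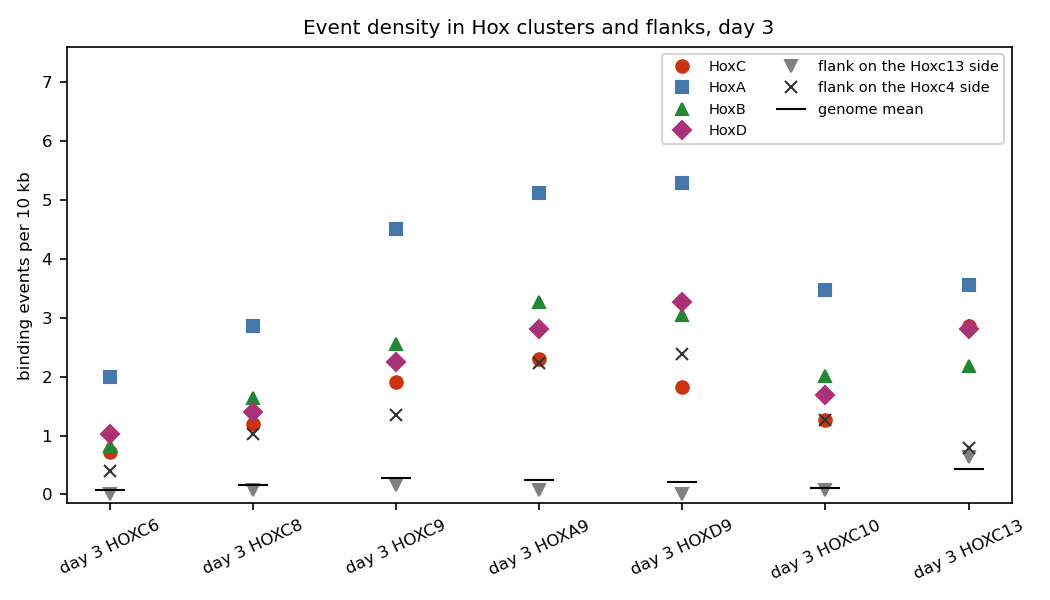
Binding events per 10 kb (vertical axis) of the 7 full-length day 3 lists (horizontal axis) in the 4 Hox clusters with 5 kb at each end, in the 2 flanks of HoxC and, as dashes, over the genome. The HoxC points run from 0.716 for HOXC6 to 2.86 for HOXC13, and HoxA is the densest cluster in each list.

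Most binding lay at the anterior end. Of the 90 sites, 50 were nearest to Hoxc4, Hoxc5 or Hoxc6, 22 to Hoxc8 or Hoxc9, and 18 to Hoxc10, Hoxc11, Hoxc12 or Hoxc13. By gene there were 24 sites and 193 events at Hoxc4, 14 and 73 at Hoxc5, 12 and 43 at Hoxc6, 15 and 48 at Hoxc8, 7 and 23 at Hoxc9, 5 and 7 at Hoxc10, 5 and 15 at Hoxc11, 6 and 10 at Hoxc12, and 2 and 3 at Hoxc13. All 11 sites held by 10 or more lists lay from the site before Hoxc6 to the Hoxc4 end of the window, and 35 sites were in a single list.

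The full-length factors reached different distances into the cluster. Measured from the first coding base of Hoxc4, the farthest event lay 20.048 kb away for HOXC6, 24.6 kb for HOXC8, 36.6 kb for HOXC10, 53.1 kb for HOXA9, 74.9 kb for HOXC9, 95.1 kb for HOXD9 and 105 kb for HOXC13. Among the 10000 events of lowest q-value in each list, which gives the lists 1 length, the reach was 20.048 kb for HOXC6, 20.045 kb for HOXC8, 36.6 kb for HOXC9, HOXA9, HOXD9 and HOXC10, and 79.4 kb for HOXC13. The central factors thus stopped at a site in Hoxc5, the HOX9 factors and HOXC10 at a site before Hoxc6, and HOXC13 at a site in Hoxc11. These end points depended on where the lists were cut. Just outside the first 10000, at rank 10017, HOXC9 had an event of 322 reads just past the Hoxc8 coding sequence, where HOXC10 had none. The HOXC13 event at the site before Hoxc12 stood at rank 11083. The cluster events in that top class were 5 of 9 for HOXC6 (55.9% of all HOXC6 events were in it), 7 of 15 for HOXC8 (22.4%), 8 of 24 for HOXC9 (13.5%), 9 of 29 for HOXA9 (15.9%), 9 of 23 for HOXD9 (17.7%), 10 of 16 for HOXC10 (37.2%) and 8 of 36 for HOXC13 (8.63%).

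**Figure D2:**
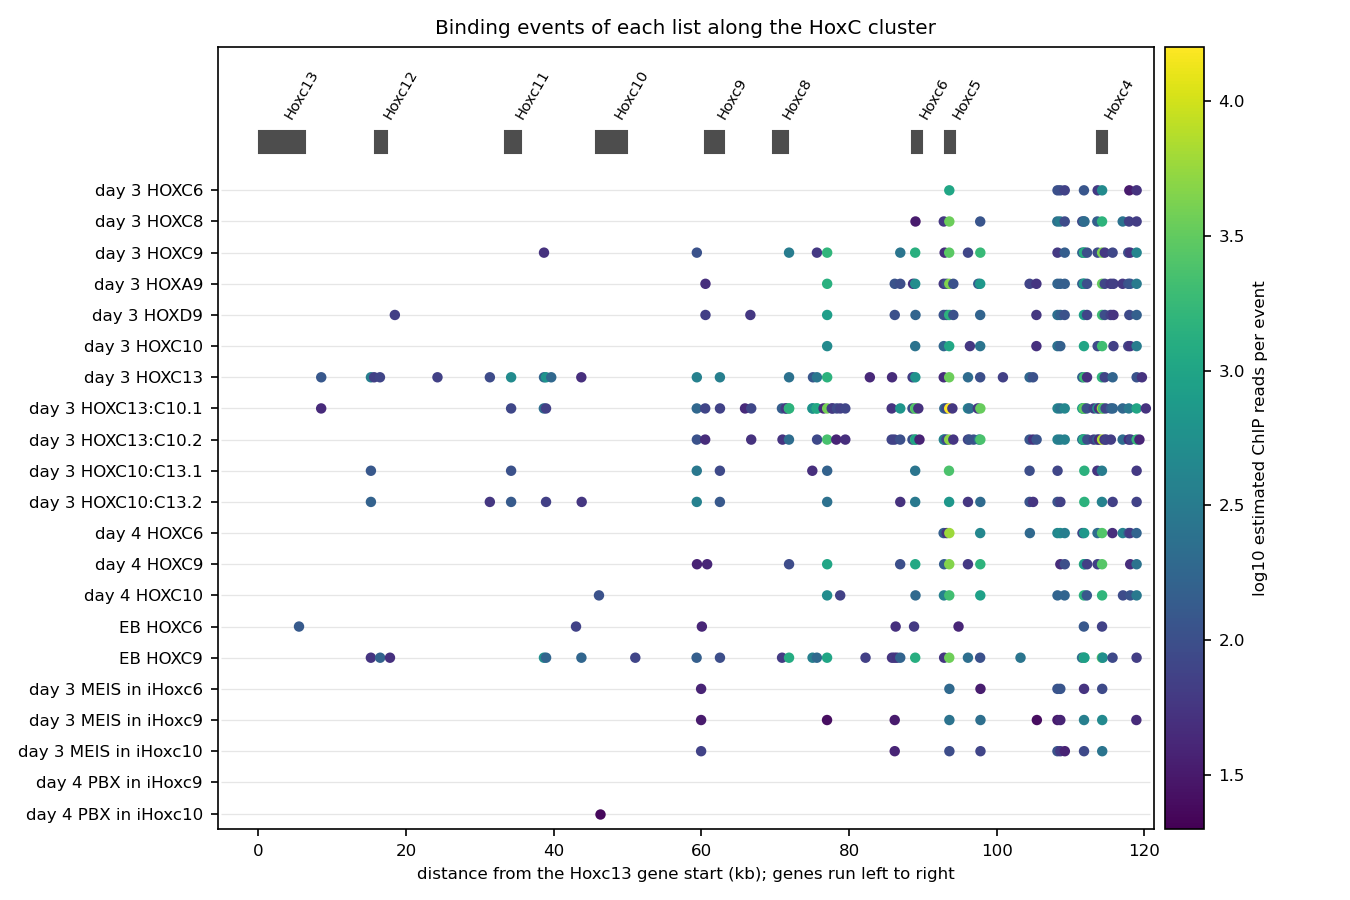
Events of the 21 lists (rows) by distance in kb from the Hoxc13 gene start, with colour for the log10 estimated ChIP reads of the event and boxes for coding spans. At day 3 the HOXC6 row is empty up to the Hoxc5 site, the HOX9 and HOXC10 rows gain the site before Hoxc6, and the HOXC13 row has 11 sites between Hoxc13 and Hoxc10.

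The 7 full-length day 3 lists together held 54 sites. HOXC6 and HOXC8 held 14 of them, all nearest to Hoxc4, Hoxc5 or Hoxc6, and each of the 14 was also held by at least 1 posterior factor. In the full lists no site belonged to the central factors alone, but this depended on list length. The site 2161 bp past the Hoxc4 coding sequence, chosen after its values were seen, held 248 reads of HOXC8 at rank 6628. Its only posterior event was of HOXA9, with 60.4 reads at rank 43802. Among the first 10000 events of each of the 7 lists, it was thus held by HOXC8 alone. Over the full lists, a further 23 sites were held by posterior factors without a central one and not by HOXC13 alone. Another 17 were held by HOXC13 alone, of which 10 lay at Hoxc10 to Hoxc13.

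Hoxc4 is the most anterior gene of the cluster. The Hoxc4 intronic site lies between the coding exons, 640 bp after the first coding base, and all 16 HOX lists and all 3 MEIS lists had an event there. At day 3 it held 478 reads of HOXC6 (95% interval 436 to 523), 1482 of HOXC8, 4238 of HOXC9 (4111 to 4368), 3297 of HOXA9, 2010.5 of HOXD9, 2064 of HOXC10 (1976 to 2155) and 1579.5 of HOXC13. The control estimate at this site was 2.8 to 11.2 reads over the 19 lists. By rank the site was 1st of 26873 events for HOXC10, 7th for HOXA9, 11th for HOXD9 and 20th for HOXC9, against 145th for HOXC8, 347th for HOXC6 and 728th for HOXC13. It was thus the HOXC10 event of lowest q-value in the genome, and each HOX9 factor and HOXC10 ranked it higher than the central factors and HOXC13 did.

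The upstream Hoxc4 site lies 1813 bp before the coding sequence. In the GENCODE annotation used for gene assignment, its position is inside an intron of a longer Hoxc4 transcript and in no HoxC exon. The site was held by the same 19 lists. HOXC6 had 120 reads and HOXC8 208, whereas HOXC9 had 1388, HOXA9 994, HOXD9 850.3, HOXC10 1001 and HOXC13 1964. Relative to the Hoxc4 intronic site of the same list it held 0.14 (HOXC8) to 0.485 (HOXC10) times as many reads for the 6 factors other than HOXC13, and 1.24 times (1.16 to 1.33) for HOXC13. HOXC8, HOXC9 and HOXA9 each had 2 events at the upstream site, and with these summed their ratios were 0.28, 0.649 and 0.52, so that the 6 ran from 0.252 (HOXC6) to 0.649 (HOXC9). Under both counts HOXC13 was the only one of the 7 with more reads at the upstream site than at the intronic site.

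The downstream Hoxc4 site, 4050 bp past the coding sequence, was held by all 7 full-length lists at lower levels. It held 52.4 reads of HOXC6, 65.7 of HOXC8, 417 of HOXC9, 316 of HOXA9, 150.4 of HOXD9, 331 of HOXC10 and 111 of HOXC13. The site 62 bp before the annotated start of the long Hoxc4 transcript, chosen after its values were seen, had no HOXC6 event at day 3. HOXC8 had 115 reads there, HOXC9 1776, HOXA9 696, HOXD9 166, HOXC10 257 and HOXC13 100.1. A pair of sites 5396 and 5016 bp before the Hoxc4 coding sequence, also chosen after their values were seen, had another order. The first held 103 reads of HOXC6, 233 of HOXC8, 231 of HOXD9, 247 of HOXC10, 173 of HOXA9 and 62.0 of HOXC9, and neither site held a HOXC13 event. By rank within its list the HOXC9 event stood at 46436 of 74085, and those of the other 5 factors stood between 2033 (HOXC10) and 9393 (HOXA9).

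Hoxc5 encodes another anterior Hox factor, and its intron also holds the microRNA gene Mir615. The Hoxc5 intronic site lies between the coding exons, 244 bp before the Mir615 hairpin, and was held by 18 lists. At day 3 it held 1048 reads of HOXC6 (986 to 1113), 3497 of HOXC8, 2908 of HOXC9 (2803 to 3016), 4516 of HOXA9, 1464 of HOXD9, 1052.5 of HOXC10 and 3550.1 of HOXC13 (3434 to 3669). It ranked 2nd for HOXA9, 5th for HOXC8, 23rd for HOXD9, 24th for HOXC6 and HOXC10, 74th for HOXC13 and 85th for HOXC9. It was the strongest cluster event, by reads, of HOXC6, HOXC8, HOXA9 and HOXC13, whereas the Hoxc4 intronic site was the strongest of HOXC9, HOXD9 and HOXC10.

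The balance of the 2 intronic sites, taken within each list, separated the factors. Reads at the Hoxc5 site divided by reads at the Hoxc4 site were 2.19 (1.97 to 2.45) for HOXC6, 2.36 (2.22 to 2.51) for HOXC8 and 2.25 (2.12 to 2.39) for HOXC13. The ratio was 1.37 (1.31 to 1.43) for HOXA9, 0.728 (0.68 to 0.779) for HOXD9, 0.686 (0.654 to 0.72) for HOXC9 and 0.51 (0.473 to 0.549) for HOXC10. The counting intervals of HOXC6, HOXC8 and HOXC13 overlapped each other and lay clear of the other 4, and those of HOXC9 and HOXD9 overlapped. The spread between differentiations is unknown.

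**Figure D3:**
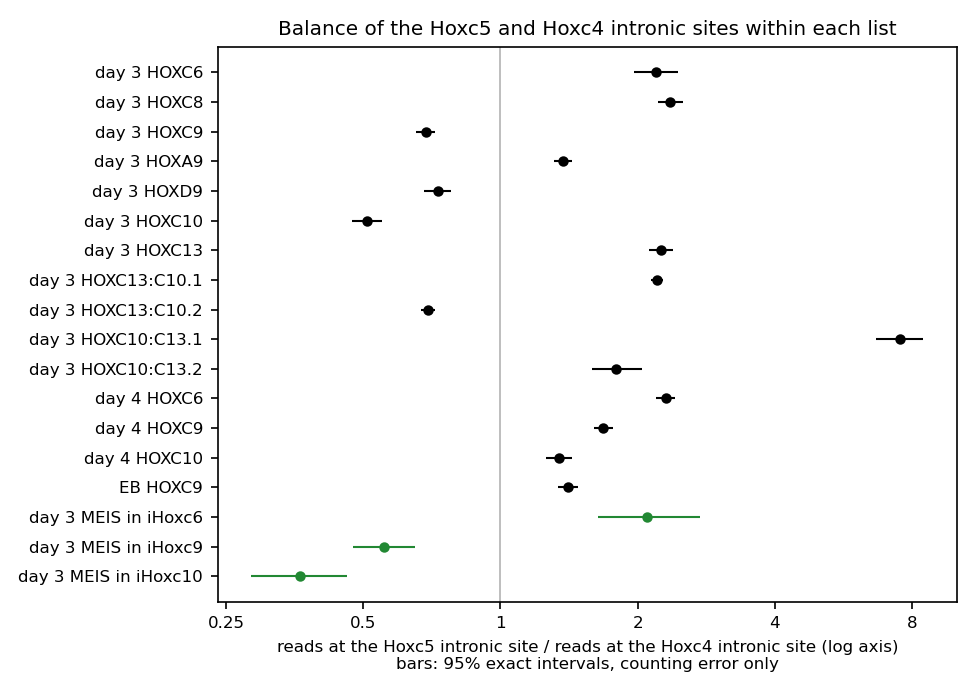
Reads at the Hoxc5 intronic site divided by reads at the Hoxc4 intronic site on a log axis, for the 18 lists (rows) with both sites, HOX in black and MEIS in green, with bars for 95% exact intervals of counting error. MEIS lay at 2.10 in iHoxc6 cells, 0.555 in iHoxc9 cells and 0.364 in iHoxc10 cells, while HOXC6, HOXC9 and HOXC10 lay at 2.19, 0.686 and 0.51.

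Hoxc6 marks brachial levels of the spinal cord. The site before Hoxc6 lies 121 bp before the Hoxc6 gene start, although the nearest coding sequence is that of Hoxc8, to which it was assigned. No HOXC6 or HOXC8 list had an event there at day 3. HOXC9 had 1566 reads, HOXA9 1365, HOXD9 830.0, HOXC10 479.0 and HOXC13 1466, and the ranks ran from 133 (HOXA9) to 876 (HOXC13). The Hoxc6 intronic site had the same contrast, with no HOXC6 event and a HOXC8 event of 32.3 reads at rank 42434 of 44608. HOXC9 had 1361 reads at it, HOXA9 517, HOXD9 169.7, HOXC10 255 and HOXC13 617. Both sites were thus strong for posterior factors and absent or near the end of the list for central ones.

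Hoxc8 and Hoxc9, which act at the brachial to thoracic levels, had few sites of the full-length day 3 lists. HOXC6 and HOXC8 had none, HOXC10 had 1, HOXA9 2, HOXD9 3, HOXC9 4 and HOXC13 6. The counts of the posterior factors include the site before Hoxc6, assigned to Hoxc8 by its coding sequence, and it was the only HOXC10 site among them. The site before Hoxc9, 1169 bp upstream of its coding sequence, held 108 reads of HOXC9 and 366 of HOXC13 and no event of the other 5. A site just past the Hoxc8 coding sequence, chosen after its values were seen, held 322 reads of HOXC9 and 242 of HOXC13.

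The Hoxc10 to Hoxc13 end, whose genes act at lumbar and more posterior levels, was almost empty of full-length factors other than HOXC13 at day 3. HOXC6, HOXC8, HOXA9 and HOXC10 had no site there. HOXC9 had 1 of its 23 sites there (4.35%, Wilson interval 0.772 to 20.991) and HOXD9 1 of 23, and HOXC13 had 11 of 36 (30.6%, 18.0 to 46.9). Of the cluster reads of HOXC13, 16.1% were in these events, against 0.304% for HOXC9 and 0.964% for HOXD9. The single HOXC9 event, 3.09 kb past the Hoxc11 coding sequence, had 51.1 reads and rank 53901 of 74085.

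At this end HOXC13 had 492 reads (449 to 537) at the Hoxc11 intronic site, 346.5 at the site before Hoxc12, 122.1 at the site after Hoxc13 and 49.3 at the site before Hoxc10. The most read HOXC13 event there, chosen after its values were seen, lay 3.37 kb past the Hoxc11 coding sequence, with 631 reads at rank 3821 of 115879. These events were weak beside the 3550.1 HOXC13 reads at the Hoxc5 intronic site. With each list held to 17900 events, the length of the shortest HOX list, HOXC13 kept 3 sites at Hoxc10 to Hoxc13 and HOXC6, HOXC8, HOXC9 and HOXC10 had 0. One HOXC13 event lay in Hotair, the noncoding RNA gene between Hoxc12 and Hoxc11, and no event of any list lay within 1 kb of Mir196a-2.

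**Figure D4:**
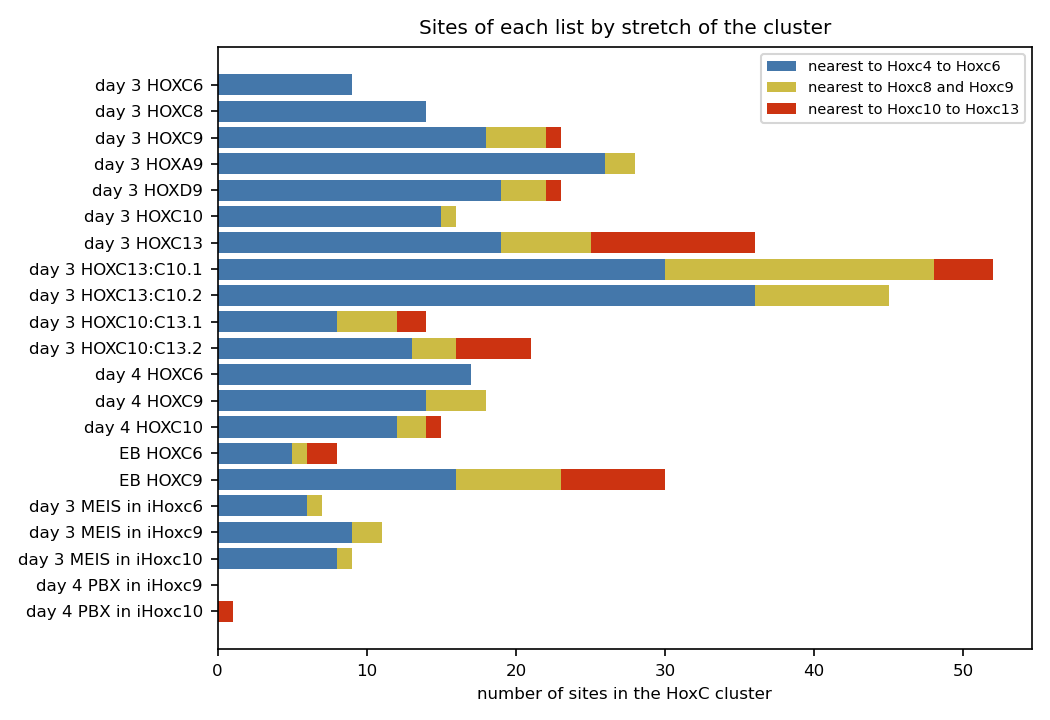
Number of sites (horizontal axis) of each list (rows), split into those nearest to Hoxc4, Hoxc5 or Hoxc6 (blue), Hoxc8 or Hoxc9 (yellow) and Hoxc10 to Hoxc13 (red). The red part is 11 sites for HOXC13 and 7 for EB HOXC9, and 0 for HOXC6, HOXC8, HOXA9 and HOXC10 at day 3.

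The chimeras exchanged the homeodomain and carboxyl end between HOXC10 and HOXC13, which asks which end of the protein goes with its binding. Those with the HOXC10 homeodomain had 60 events in the cluster of 99311 in the list (HOXC13:C10.1) and 49 of 87315 (HOXC13:C10.2), and those with the HOXC13 homeodomain had 14 of 61482 (HOXC10:C13.1) and 21 of 86293 (HOXC10:C13.2). The density over the genome mean was 12.7 and 11.8 for the former and 4.798 and 5.13 for the latter, beside 12.5 for HOXC10 and 6.54 for HOXC13. This nearness to the parent with the same homeodomain depended on list length. Among the first 10000 events of each list the densities were 44.2 and 27.4, and 10.6 and 14.8, beside 21.1 for HOXC10 and 16.9 for HOXC13. At Hoxc10 to Hoxc13 the counts were 4 of 52 sites and 0 of 45 for the HOXC10 homeodomain, and 2 of 14 and 5 of 21 for the HOXC13 homeodomain. Held to 17900 events, the former had 0 and 0 sites there and the latter 1 and 1, and none of the 4 had a site there among its first 10000 events. The Hoxc11 intronic site held 105 and 129 reads of the HOXC10:C13 pair, at ranks 15516 and 16883, and 82.1 reads of HOXC13:C10.1, at rank 51781. The site before Hoxc12 held 123 and 160.3 reads of the chimeras with the HOXC13 homeodomain and no event of the others.

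HOXC13:C10.1 had the Hoxc5 intronic site as 1st of its 99311 events, with 15474.5 reads. It also had 5690 reads at the Hoxc6 intronic site (rank 60) and 2324 just past Hoxc8, where HOXC10 had no event. At the site before Hoxc9 both chimeras with the HOXC13 homeodomain had 288.5 and 366.0 reads, at ranks 3074 and 2397, the chimeras with the HOXC10 homeodomain had 186.9 and 107.7, at ranks 26496 and 38576, and HOXC10 had none. The balance of the Hoxc4 sites also differed between the chimeras. Reads at the upstream site over the intronic site were 4.44 (3.93 to 5.03) and 3.86 (3.45 to 4.34) for the HOXC10:C13 pair, and 0.46 (0.441 to 0.48) and 0.254 (0.241 to 0.267) for the HOXC13:C10 pair, beside 1.24 for HOXC13 and 0.485 for HOXC10. With all events of a site summed, HOXC13:C10.1 (3 events at the upstream and 2 at the intronic site) moved to 0.982 (0.953 to 1.01), nearer to HOXC13 than to HOXC10, and HOXC13:C10.2 to 0.416 (0.399 to 0.434). Sharing with the parents was counted against lists of unequal length, 115879 events of HOXC13 and 26873 of HOXC10. Shares with the 2 parents are therefore not on 1 scale, and lists of equal length were not tried. Of the 14 HOXC10:C13.1 events 12 were within 100 bp of a HOXC13 event (49.5% over the list) and 8 of a HOXC10 event (6274 of 61482 over the list). Of the 21 HOXC10:C13.2 events 18 were near a HOXC13 event (47.0%) and 9 near a HOXC10 event (7.89%). Of the 60 HOXC13:C10.1 events 30 were near a HOXC13 event (37.5%) and 17 near a HOXC10 event (21.9%), and of the 49 HOXC13:C10.2 events 23 (28.5%) and 18 (31.3%). The balance of the Hoxc5 and Hoxc4 intronic sites did not divide them in this way, with 2.20 for HOXC13:C10.1 (1.72 with its 2 events at the Hoxc4 site summed), 0.695 for HOXC13:C10.2, 7.51 for HOXC10:C13.1 and 1.80 for HOXC10:C13.2.

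**Figure D5:**
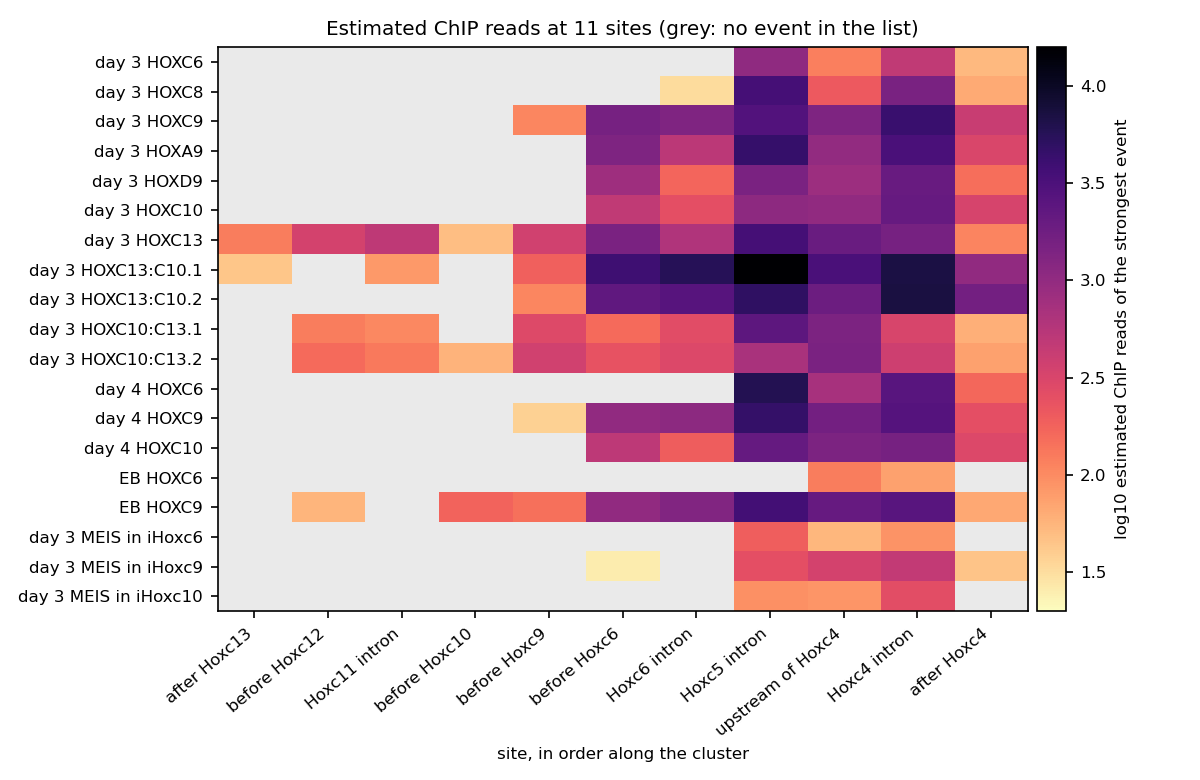
Log10 estimated ChIP reads (colour) at the 11 sites shown above, ordered along the cluster (columns), in the 16 HOX and 3 MEIS lists (rows), with grey where a list has no event. The Hoxc5 and Hoxc4 columns at the right are filled in most rows, and the 4 columns at the left are filled in the HOXC13, chimera and EB HOXC9 rows only.

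The same factors were compared between day 3 and day 4. HOXC6 had 17 events at day 4, again none beyond Hoxc5. Its list was longer at day 4, with 69297 events against 17900, and its density over the genome mean was 5.2 against 10.6. The signal fractions of its libraries were 0.311 and 0.304 at day 4, and 0.08 and 0.07 at day 3. Of the 17 HOXC6 events 8 were in its first 10000 (14.4% of its list), as were 8 of 19 HOXC9 events (22.7%) and 12 of 15 HOXC10 events (45.4%). Of the 17, 9 were within 100 bp of a day 3 HOXC6 event (25.9% over the list), and all 9 day 3 events were within 100 bp of a day 4 event (92.4% over the day 3 list). For HOXC9, 17 of 19 day 4 events lay near a day 3 event (81.8%) and 17 of 24 in reverse (49.4%). For HOXC10 these were 10 of 15 (56.4%) and 10 of 16 (46.4%). The site before Hoxc6 and the Hoxc6 intronic site again had no HOXC6 event and held 1014 and 1086 reads of HOXC9 and 502 and 195 of HOXC10. The Hoxc5 intronic site ranked 4th for HOXC6, 2nd for HOXC9 and 9th for HOXC10. Its reads over those of the Hoxc4 intronic site were 2.30 (2.20 to 2.41) for HOXC6, against 2.19 at day 3. The ratio was 1.68 (1.60 to 1.76) for HOXC9 and 1.34 (1.26 to 1.43) for HOXC10, against 0.686 and 0.51 at day 3. The day 4 lists had a control library of 4.72 M reads and the day 3 lists of these 3 factors one of 20.6 M reads, and the part of this in the shift was not tested.

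In EBs without patterning signals the HOXC6 and HOXC9 lists stood far apart in the cluster. HOXC6 had 8 events, 2 of them at Hoxc10 to Hoxc13 and none among its first 10000 (22.3% of its list), and the best ranked 13937 of 44751. It had no event at the Hoxc5 intronic site, 73.6 reads (58.1 to 92.9) at the Hoxc4 intronic site, close to the end of its list at rank 44304, and 124 at the upstream Hoxc4 site. Only 2 of the 8 were within 100 bp of a day 3 HOXC6 event (7.38% over the list) and 2 of 8 of an EB HOXC9 event (71.7% over the list). HOXC9 had 32 events in EBs, 7 of them in its first 10000 (7.79% of its list), with 3668 reads at the Hoxc5 intronic site, 2605 at the Hoxc4 intronic site and 2069 at the upstream Hoxc4 site.

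EB HOXC9 also extended farther than day 3 HOXC9. It had 7 of 30 sites at Hoxc10 to Hoxc13 (23.3%, Wilson interval 11.8 to 40.9), including 534 reads (490 to 581) at the site 3.09 kb past Hoxc11 where day 3 HOXC9 had 51.1. It had 177 reads at the site before Hoxc10 and 1207 just past Hoxc8, against no event and 322 at day 3. Of its 32 events 23 were within 100 bp of a day 3 HOXC13 event (22.4% over the list) and 18 of a day 3 HOXC9 event (23.5%). In reverse, 17 of 24 day 3 HOXC9 events were near an EB HOXC9 event (40.4%). The EB HOXC9 list was the longest, with 128388 events, and its libraries had the signal fractions 0.461 and 0.491, against 0.174 and 0.398 at day 3. Held to 17900 events it kept 1 site at Hoxc10 to Hoxc13.

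MEIS had 7 events in iHoxc6 cells, 11 in iHoxc9 cells and 9 in iHoxc10 cells, each list from 1 library (12.1 M, 9.70 M and 10.9 M reads). All 7 were in the first 10000 of the shortest MEIS list (100.0% of that list), and 4 of 11 (44.0%) and 8 of 9 (77.0%) in the others. Of these 5 of 7, 7 of 11 and 6 of 9 lay within 100 bp of a day 3 event of the factor that those cells induced (53.8%, 66.8% and 53.9% over the lists). The HOX events came from Flag-tagged lines, apart from the first HOXC10 library, and the MEIS events from V5 lines, so lines and tags differed. All 7 iHoxc6 events were near an iHoxc9 event of MEIS (72.7%), 7 of 11 in reverse (26.9%), and 8 of 9 iHoxc10 events near an iHoxc9 event (75.9%). At the Hoxc5 intronic site MEIS had 190 reads (164 to 219) in iHoxc6 cells, 254 (224 to 287) in iHoxc9 cells and 94.2 (76.0 to 115) in iHoxc10 cells. At the Hoxc4 intronic site it had 90.5, 458 and 259.0. The ratio of the 2 sites was 2.10 (1.63 to 2.74) in iHoxc6 cells, 0.555 (0.474 to 0.648) in iHoxc9 cells and 0.364 (0.284 to 0.461) in iHoxc10 cells, the same order as for HOXC6, HOXC9 and HOXC10. The upstream Hoxc4 site over the intronic one did not keep that order. For MEIS this ratio was 0.602 (0.42 to 0.85) in iHoxc6, 0.752 (0.653 to 0.868) in iHoxc9 and 0.335 (0.26 to 0.43) in iHoxc10 cells. It was 0.252 for HOXC6, 0.328 for HOXC9 (0.649 with its events summed) and 0.485 for HOXC10.

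The pair of sites 5396 and 5016 bp before Hoxc4 also differed between the MEIS lists. MEIS had 113 and 116.5 reads there in iHoxc6 cells, or 1.25 (0.943 to 1.68) and 1.29 (0.970 to 1.72) times its reads at the Hoxc4 intronic site. In iHoxc9 cells it had 32.4 and 38.8 reads, or 0.0707 (0.0472 to 0.1) and 0.0846 (0.0598 to 0.118) times, and in iHoxc10 cells 109.7 and 60.3, or 0.424 (0.337 to 0.533) and 0.233 (0.172 to 0.308) times. HOXC9 itself was weak or absent at these sites. A site 585 bp before the Hoxc9 coding sequence, chosen after its values were seen, had a MEIS event in all 3 lines (38.4, 32.3 and 75.3 reads) and no HOX event within the 100 bp used for joining. The nearest HOX event, of EB HOXC6 with 40.4 reads, was 101 bp away, so a joining distance of 200 bp put both in 1 site. MEIS had no event at Hoxc10 to Hoxc13. PBX, whose lists held 1165 and 848 events, had none in iHoxc9 cells and 1 in iHoxc10 cells.

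That PBX event lay in the first coding exon of Hoxc10, the gene carried by the transgene of the line, with 23.0 reads (14.6 to 34.5). Day 4 HOXC10 also had an event in that exon, with 106 reads (86.8 to 128) at rank 8301 of 22027. Of 33 events in HoxC coding exons over all lists, 4 were in an exon of the gene induced in those cells, the other two being day 4 HOXC9 in Hoxc9 (41.0 reads) and EB HOXC6 in Hoxc6 (62.3 reads). All 4 were at sites that no other list held, as against 1 of the 29 events in exons of other HoxC genes. The lists differed in how often they held a site alone. EB HOXC6 held 6 of its 8 cluster sites alone and PBX its only 1, whereas day 4 HOXC9 and day 4 HOXC10 held 1 site each alone. Reads inside coding exons are shared by the native gene and the cDNA of the transgene, so binding at the one and recovery of the other cannot be told apart.

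Within the cluster HOXC6 events were all shared with HOXC8 (9 of 9, 90.2% over the HOXC6 list), and 10 of 15 HOXC8 events with HOXC6 (37.0%). HOXC6 and HOXC9 shared 7 of 9 HOXC6 events (69.8%) and 8 of 24 HOXC9 events (17.3%). HOXC9 and HOXC10 shared 12 of 24 HOXC9 events (30.4% over the list) and 11 of 16 HOXC10 events (81.3%). This turned with list length, and with both lists held to the shorter one 72.7% of HOXC9 events and 43.8% of HOXC10 events in the cluster were shared. HOXC9 and HOXC13 shared 17 of 24 HOXC9 events (34.7%) and 16 of 36 HOXC13 events (22.1%). Wilson intervals were wide at these numbers, 50.8% to 85.1% for the 17 of 24 and 44.4% to 85.8% for the 11 of 16. The intervals of HOXC10 in HOXC9, HOXC6 in HOXC8 (70.1% to 100%) and HOXC6 in HOXC9 (45.3% to 93.7%) held the value over their list. So did the intervals of all pairs of HOX9 factors given below. Those of HOXC8 in HOXC6 (41.7% to 84.8%), HOXC9 in HOXC6 (18.0% to 53.3%), HOXC9 in HOXC10 (31.4% to 68.6%), HOXC9 in HOXC13 and HOXC13 in HOXC9 (29.5% to 60.4%) all lay above theirs. These intervals take events as independent, but HOXC8 and HOXC9 each had 2 events at the upstream Hoxc4 site. Both were counted as shared with a single event of the other list. Shares by site were not computed, so these intervals are no test of a difference from the list. Among HOX9 factors 16 of 29 HOXA9 events (67.4%) and 11 of 23 HOXD9 events (55.5%) were shared with HOXC9, 16 of 24 HOXC9 events with HOXA9 (57.9%), and 21 of 29 HOXA9 events with HOXD9 (66.2%).

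The words in the sequences above were counted within 50 bp of each event, on both strands. TTTAT was near 31 of 36 HOXC13 events (86.1%, against 78.8% over the list), 16 of 24 of HOXC9 (66.7%, 62.4%), 9 of 16 of HOXC10 (56.2%, 54.2%) and 3 of 9 of HOXC6 (33.3%, 38.4%). Windows of 101 bp every 50 kb along the genome held it in 33.8%. TTTAC, found in 19.1% of genome windows, was near 16 of 36 HOXC13 events (42.8% over the list), 13 of 24 of HOXC9 (27.7%) and 9 of 16 of HOXC10 (24.3%). The Hoxc5 intronic site carried TTTAC 3 times within 50 bp and the Hoxc4 intronic site did not carry it, while TAAT (53.0% of genome windows) occurred at both. TAAT was near 6 of 9 HOXC6 events (71.1% over the list) and 16 of 24 HOXC9 events (74.7%). The PBX-Hox word TGATTTAT, which contains TTTAT, stood at the upstream and downstream Hoxc4 sites, which all 7 full-length lists held, and at 1 site each of Hoxc6 and Hoxc8. By event it was near 2 of 9 of HOXC6 (Wilson interval 6.32% to 54.7%, 3.47% over the list) and 2 of 15 of HOXC8 (3.25%). It was near 2 of 24 of HOXC9 (5.93%), 3 of 29 of HOXA9 (8.18%) and 3 of 23 of HOXD9 (8.75%). For HOXC10 this was 2 of 16 (7.31%) and for HOXC13 1 of 36 (2.48%), with 0.627% of genome windows. The MEIS word TGACAG was near none of the 7, 11 and 9 MEIS events in the cluster, against 25.5%, 21.2% and 23.4% over the MEIS lists and 6.45% of genome windows. The Wilson intervals reached up to 35.4%, 25.9% and 29.9% and so held the values over the lists, and the MEIS events lay at only 12 sites. TGACAG was also absent from the 101 bp around the site before Hoxc9 that MEIS held.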

How the data were processed

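ChIP-seq events of 42 samples in 23 groups were taken from 21 lists. Per the study's methods, the authors aligned reads to mm10 with Bowtie 1.0.1, kept uniquely aligned reads and called events in each condition with MultiGPS at a q-value under 0.001. Per the file headers, the replicates of a condition share 1 set of event values. The submitters' processing notes also name Picard 2.8.2 and edgeR 3.22.5. Each deposited event has estimated counts of ChIP and control reads, a log2 fold over control and a log2 q-value, which was treated as a score for ranking. Deposited position tracks also carry a score, and were read only to check that positions were the same in all 21. Columns of the authors' edgeR comparisons between conditions hold log2 fold changes and q-values and were not used.

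The deposited sequences of 375 cluster events were all found within 250 bp of their event on GRCm38. Events within 100 bp were joined to sites, and the strongest event of a list stood for it at a site. Sites were assigned to the nearest coding span of GENCODE release M21. Lists were ranked by q-value, ties by ChIP reads. Intervals are exact Poisson for reads, exact binomial for ratios and Wilson for shares, all at 95%. Python 3.11.15, numpy 2.4.6, pandas 2.3.3, scipy 1.17.1 and matplotlib 3.10.9 were used, and the functions for joining, overlap and motif search were checked on simulated data.

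The genes, sites, words and comparisons were chosen with earlier results of these data known. Sites described in full are, for each gene, the one held by most lists, any held by all 7 full-length day 3 lists, and the strongest of each full-length HOXC day 3 list; other sites were chosen after their values were seen. No file gives values per replicate, so no test was made. Summing all events of a list at a site was added after seeing the data. Other alternatives were tried for the joining distance, list length, q-value, window, gene assignment, ranking and motif window.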

Additional observations from a re-analysis of the deposited data

How the results depend on the processing

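No paired analysis was possible because the lists pool their replicates, and leaving out a replicate was not possible for the same reason. Of 113 values under other settings, 64 stayed within 1.5 times (counts) or within the 95% interval (shares and ratios), and 49 moved.

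With the first 10000 events of each list there were 28 sites in the cluster in place of 90. Sites at Hoxc10 to Hoxc13 were then 2 for HOXC13 (11 over the full list) and 0 for HOXC9 (1), EB HOXC9 (7), HOXC13:C10.1 (4), HOXC10:C13.1 (2) and HOXC10:C13.2 (5). With all lists held to 17900 events they were 3 for HOXC13, 1 for EB HOXC9, HOXC10:C13.1 and HOXC10:C13.2, and 0 for HOXC9 and HOXC13:C10.1. At q under 1e-10 they were 0 for HOXC9, 4 for EB HOXC9 and 3 for HOXC10:C13.2. HOXC6, HOXC8, HOXC10 and HOXC13:C10.2 had 0 under each of these settings.

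Among the first 10000 events, 100% of HOXC9 cluster events were shared with HOXC10 and 100% of MEIS events in iHoxc9 cells with HOXC9. With both lists held to the shorter one, 66.7% of HOXC6 events were shared with HOXC8, 72.7% of HOXC9 events with HOXC10 and 43.8% of HOXC10 events with HOXC9. With the first 20000 events, 9 HOXC6 cluster events were in the top class in place of 5. The density over the genome mean among the first 10000 events was 14.7 for HOXC8, 16.8 for HOXC9, 18.95 for HOXA9, 18.96 for HOXD9, 21.1 for HOXC10, 16.9 for HOXC13, 44.2 for HOXC13:C10.1, 27.4 for HOXC13:C10.2, 10.6 for HOXC10:C13.1 and 14.8 for HOXC10:C13.2. The median cluster event stood at percentile 69.3 (HOXC6), 65.1 (HOXC9) and 73.7 (HOXC13) by log2 fold, against 68.0, 61.2 and 73.3 by reads.

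Within 25 bp, TTTAC was near 19.4% and TTTAT near 63.9% of HOXC13 cluster events, and TAAT near 41.7% of HOXC9 events. Within 100 bp, TTTAC was near 72.2% of HOXC13 events and TAAT near 87.5% of HOXC9 events.

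Summing all events of a list at a site, chosen after seeing the data, moved reads at the upstream over the intronic Hoxc4 site to 0.28 for HOXC8, 0.649 for HOXC9, 0.52 for HOXA9, 0.982 for HOXC13:C10.1, 0.416 for HOXC13:C10.2, 0.848 for day 4 HOXC9 and 0.925 for EB HOXC9. It moved reads at the Hoxc5 over the Hoxc4 intronic site to 1.72 for HOXC13:C10.1 and 1.17 for EB HOXC9.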
